A study of Caenorhabditis elegans with 6 samples.

Results

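The enzymes of glycolysis were examined in whole-animal RNA of *C. elegans* grown with or without MProPow2, a hydrolyzed milk protein powder that contains milk fat globule membrane. The 10 genes were taken by their names in the deposited table of 46936 genes. They are hxk-1, gpi-1, aldo-1, aldo-2, gpd-2, gpd-3, pgk-1, enol-1, pyk-1 and pyk-2. The rule used names alone, but the set was put together with earlier results of these data known. All 10 passed the filter on low counts and were among the 14534 genes tested.

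There were 3 biological replicates of control animals, whose plates received water, and 3 of animals on plates with Protein powder 2, called MProPow2 below. In both groups the animals were wild type (N2), were fed *E. coli* OP50 at 20 °C from the first larval stage on, and were moved at the L4 stage to plates with 5-fluorouracil, which the study used to prevent progeny. They were collected on day 2 of adulthood. Both groups thus carried the same 5-fluorouracil exposure, and no library without it was part of the comparison.

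Glycolysis splits glucose into pyruvate and yields ATP and NADH. Hexokinase traps glucose in the cell, phosphofructokinase commits it, aldolase cleaves the sugar, and the steps from GAPDH to pyruvate kinase harvest the energy. Most of the enzymes also work in reverse, in the synthesis of glucose from the products of fat and amino acids, while hexokinase, phosphofructokinase and pyruvate kinase do not. In worms, several steps have more than 1 isozyme, and the transcripts of these isozymes differ in the tissues they come from.

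Each library held between 28859395 and 37501098 counts. The share of the 10 genes in a library was 0.222% to 0.240% in control and 0.181% to 0.195% in MProPow2. Expression is given in CPM, which are counts scaled to the same total of 1000000 per library, on TMM-scaled library sizes. A positive log2 fold change means a higher level in MProPow2-treated animals, and each adjusted p credited to edgeR comes from its quasi-likelihood test, adjusted by the Benjamini-Hochberg method over every gene tested. Over all genes, 214 were called lower and 223 higher at an adjusted p under 0.05. With upper-quartile scaling these were 131 lower and 229 higher. No two-sided exact permutation p below 0.1 is possible for a single gene in 3 against 3 libraries, and the calls therefore come from the fit to the whole table.

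All 10 enzymes had a negative log2 fold change, from -0.53 for aldo-2 to -0.02 for pyk-1, with a median of -0.22. Over all genes tested the median was -0.01, and 52.9% of the genes had a negative value. At the adjusted threshold 1 of the 10 enzymes, the aldolase aldo-2, was called lower, and none was called higher. The background in the whole table was 1.47% called lower and 1.53% called higher. At an unadjusted p under 0.05, 7 of the 10 were lower (aldo-2, gpd-2, gpd-3, pgk-1, enol-1, gpi-1 and pyk-2), against 7.75% of all genes tested. None of the 10 was higher at that threshold, against 9.13% of all genes. In the same 7 genes all MProPow2 libraries lay below all control libraries, which held for 12.3% of all genes tested. Most of these differences were small, and 9 of the 10 did not pass the adjusted threshold. The count of 7 was 3 with upper-quartile scaling, where 4.61% of all genes passed. The medians were then -0.16 for the enzymes and 0.05 for all genes tested. The count was 4 without control replicate 1, control replicate 2 or MProPow2 replicate 1, where 5.11%, 5.64% and 5.15% of all genes passed. The summed CPM of the 10 genes was 2408, 2269 and 2221 in control replicates 1, 2 and 3 and 1910, 1901 and 1856 in MProPow2 replicates 1, 2 and 3. The mean in MProPow2 was 82.2% of that in control. This sum is weighted to the abundant genes, of which aldo-2 had the highest CPM, with means of 662 in control and 459 in MProPow2.

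**Figure D1:**
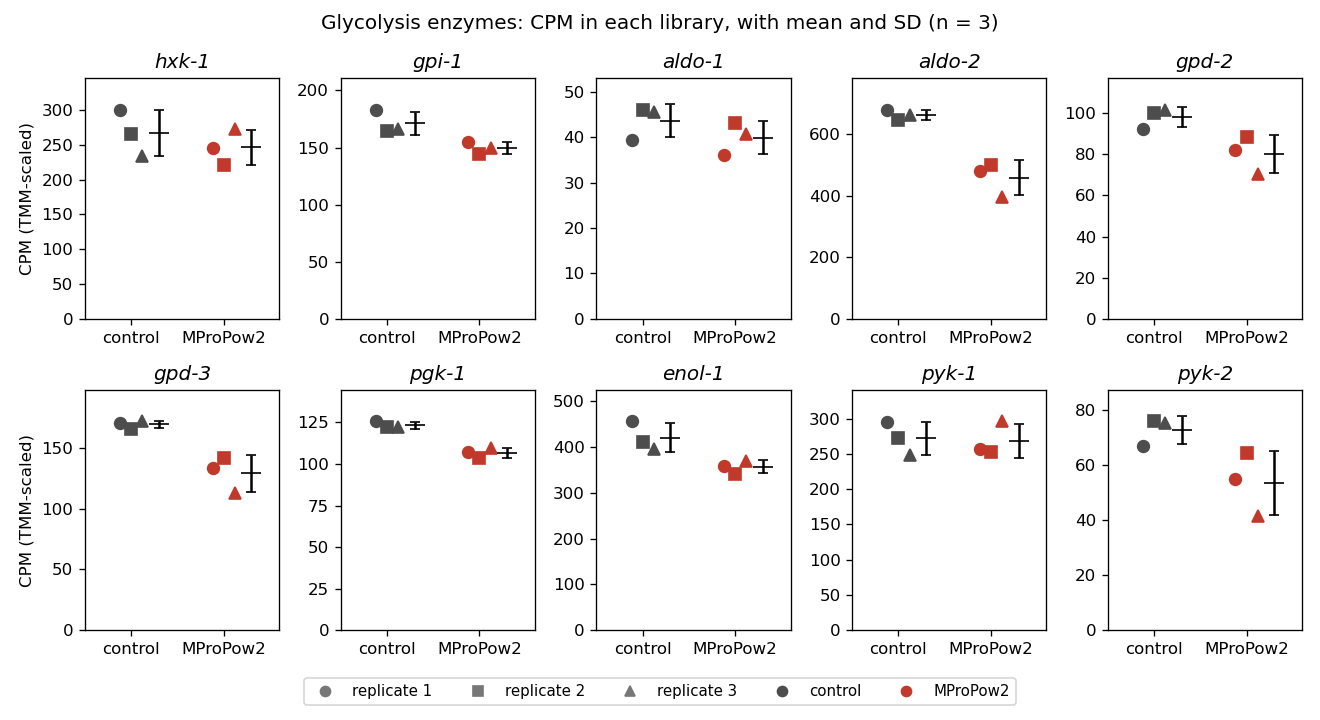
CPM of the 10 glycolysis enzymes in each library (y axis from 0, TMM-scaled), with control libraries in grey and MProPow2 libraries in red. Marker shapes give the replicate number, and the bars to the right of the points give mean and SD (n = 3). For aldo-2 the 3 MProPow2 libraries sit between 395 and 501 CPM, below the control libraries at 646 to 679 CPM, whereas the groups overlap for hxk-1, aldo-1 and pyk-1.

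At the entry of the pathway, hexokinase phosphorylates glucose. Its gene hxk-1 (identifier 172751) was at 300, 266 and 234 CPM in control replicates 1, 2 and 3 and at 246, 222 and 272 CPM in MProPow2 replicates 1, 2 and 3. The groups overlapped, since MProPow2 replicate 3 lay above control replicates 2 and 3. The log2 fold change was -0.11 (95% confidence interval -0.38 to 0.15, adjusted p = 0.71 from edgeR). The next enzyme, glucose-6-phosphate isomerase (gpi-1, identifier 173227), converts glucose-6-phosphate into fructose-6-phosphate. It was at 183, 164 and 166 CPM in control and at 155, 144 and 149.7 CPM in MProPow2 libraries, so that each MProPow2 library lay below each control library. Its log2 fold change was -0.20 (95% confidence interval -0.38 to -0.01, adjusted p = 0.28 from edgeR).

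Aldolase cleaves fructose-1,6-bisphosphate into a pair of triose phosphates and is encoded by aldo-1 and aldo-2. The gene aldo-2 (identifier 175827) fell the most of the 10. Control libraries were at 679, 646 and 662 CPM and MProPow2 libraries at 481, 501 and 395 CPM, always in the order of replicates 1, 2 and 3, on 11843 to 24223 reads per library. The lowest control library was thus well above the highest MProPow2 library, and MProPow2 replicate 3 was the lowest of all. Means were 662 ± 16.6 CPM in control and 459 ± 56.2 CPM in MProPow2 (SD, n = 3 each), which is 69.3% of control, and the log2 fold change was -0.53 with a standard error of 0.11 (adjusted p = 0.039, edgeR). The size was stable and the call was not. With single libraries left out the log2 fold change ran from -0.60 to -0.43. The adjusted p from edgeR was 0.137 without control replicate 1, 0.126 without control replicate 2 or 3 and 0.111 without MProPow2 replicate 1. Leaving out MProPow2 replicate 2 or 3 kept the call (0.037 and 0.011). Upper-quartile scaling (adjusted p = 0.074 from edgeR), a replicate block (0.080) and limma on the FPKM values (adjusted p between 0.078 and 0.154) also ended the call, while DESeq2 made it (adjusted p = 3.45e-04).

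The other aldolase gene, aldo-1 (identifier 176788), was at 39.4, 46.0 and 45.4 CPM in control and 36.0, 43.1 and 40.6 CPM in MProPow2 libraries. The groups overlapped, and the log2 fold change was -0.13 (95% confidence interval -0.36 to 0.11, adjusted p = 0.62 from edgeR). When the reads of both aldolase genes were summed before the fit, so that the split of reads between them did not matter, the sum went from 706 ± 13.3 CPM to 499 ± 56.4 CPM (SD, n = 3 each). Its log2 fold change was -0.50 (adjusted p = 0.042 from edgeR). This call was lost without any 1 of the control libraries or without MProPow2 replicate 1 (adjusted p between 0.126 and 0.146), with upper-quartile scaling (0.082), with a replicate block (0.090) and with at least 10 counts in every library (0.051). In FPKM, which takes the length of the gene into account, aldo-1 made up 5.86%, 7.11% and 6.86% of the summed aldolase in control replicates 1, 2 and 3. In the MProPow2 libraries its share was 7.45%, 8.46% and 9.93%, in the same order. Every MProPow2 library thus had a larger aldo-1 share than any control library, with aldo-2 remaining the main isozyme throughout. This share is a description and was not tested.

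**Figure D2:**
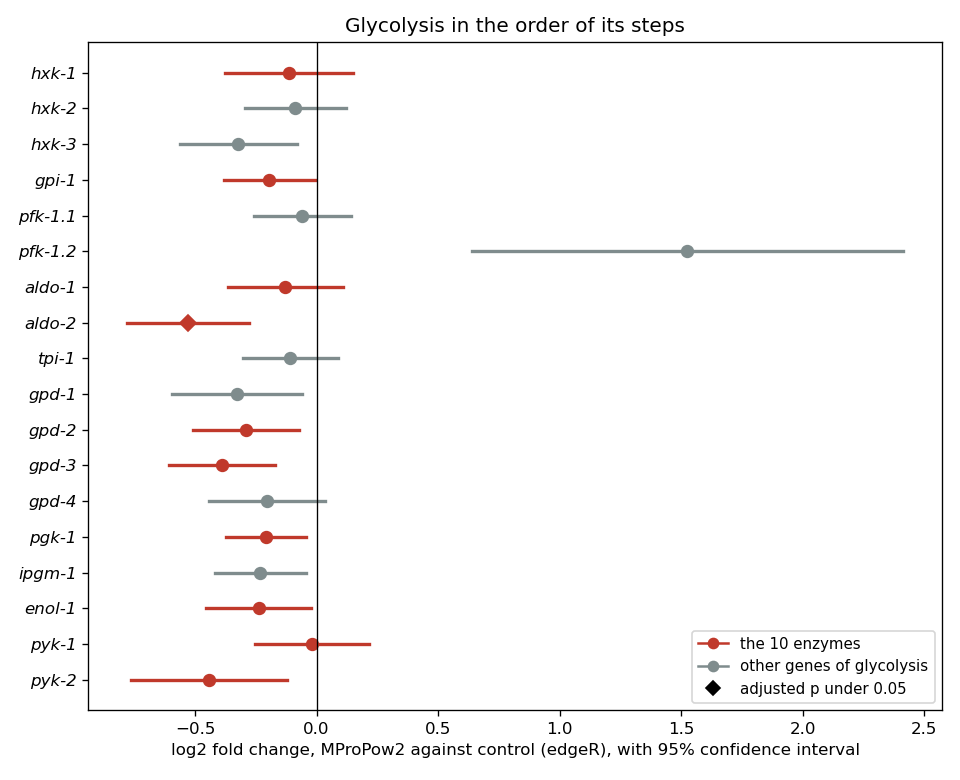
Log2 fold change of MProPow2 against control with its 95% confidence interval (x axis) for the 10 enzymes (red) and the other genes of glycolysis (grey), in the order of the steps. Diamonds mark an adjusted p under 0.05, which among these genes is aldo-2 at -0.53. Only pfk-1.2 lies to the right of 0, at 1.53.

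Glyceraldehyde-3-phosphate dehydrogenase (GAPDH) oxidizes the triose phosphate and makes NADH. Worms have 4 GAPDH genes, of which gpd-2 and gpd-3 lie next to each other in the RefSeq gene table and belong to an operon with mai-1, which resembles inhibitors of the mitochondrial ATPase. The gene gpd-3 (identifier 180601) was at 170, 165 and 172 CPM in control and at 133, 142 and 112 CPM in MProPow2 libraries. The control libraries were close together, and all MProPow2 libraries lay below them. The log2 fold change was -0.39 (95% confidence interval -0.61 to -0.17, adjusted p = 0.071 from edgeR), and gpd-3 was called by DESeq2 (adjusted p = 0.023), by edgeR without MProPow2 replicate 2 (adjusted p = 0.045) and by edgeR with no filter (adjusted p = 0.012). It was not called by edgeR without any 1 of the control libraries or without MProPow2 replicate 1 (adjusted p between 0.181 and 0.196). Upper-quartile scaling (0.158) and a replicate block (0.134) gave no call in edgeR either.

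Its neighbour gpd-2 (identifier 3565504) had 92.4, 100.1 and 102 CPM in control and 82.0, 88.4 and 70.2 CPM in MProPow2 libraries, again without overlap. Its log2 fold change was -0.29 (95% confidence interval -0.51 to -0.07, adjusted p = 0.17 from edgeR). The coding sequences of both genes are close copies, so reads may have been split between them. Their summed reads had a log2 fold change of -0.35 (adjusted p = 0.113 from edgeR, and 0.048 from DESeq2). The operon partner mai-1, looked up after these values were seen, was at 4.87, 5.20 and 4.25 CPM in control and 4.97, 5.90 and 6.17 CPM in MProPow2 libraries. It did not share the lower values of gpd-2 and gpd-3, and its log2 fold change was 0.25 (adjusted p = 0.49 from edgeR).

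Phosphoglycerate kinase and enolase follow. Phosphoglycerate kinase makes the first ATP of the pathway, and its gene pgk-1 (identifier 171965) was at 126, 122 and 122 CPM in control and at 107, 104 and 109 CPM in MProPow2 libraries. The groups did not overlap. The log2 fold change was -0.21 (95% confidence interval -0.37 to -0.04, adjusted p = 0.19 from edgeR). Enolase produces phosphoenolpyruvate, and enol-1 (identifier 174423) was at 456, 411 and 395 CPM in control and 359, 341 and 369 CPM in MProPow2 libraries. All MProPow2 libraries lay below all control libraries, with a log2 fold change of -0.24 (95% confidence interval -0.45 to -0.02, adjusted p = 0.25 from edgeR).

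Pyruvate kinase makes pyruvate and the last ATP of the pathway, and its genes differed in their values. The gene pyk-1 (identifier 172744) was at 295, 273 and 248 CPM in control and at 256, 252 and 296 CPM in MProPow2 libraries. The highest and the lowest library were an MProPow2 and a control library, and the log2 fold change of -0.02 (95% confidence interval -0.25 to 0.21, adjusted p = 0.96 from edgeR) changed sign with upper-quartile scaling (0.05). It also changed sign without control replicate 1 (0.04), MProPow2 replicate 1 (0.01) or MProPow2 replicate 2 (0.02). Under upper-quartile scaling the median of all genes tested was 0.05 as well. In contrast, pyk-2 (identifier 177984) was at 67.1, 76.1 and 75.5 CPM in control and at 54.9, 64.6 and 41.5 CPM in MProPow2 libraries, without overlap. Its log2 fold change was -0.44 (95% confidence interval -0.76 to -0.12, adjusted p = 0.15 from edgeR), and -0.29 without MProPow2 replicate 3. With no filter on low counts pyk-2 was called (adjusted p = 0.0041 from edgeR). DESeq2 did not call it (adjusted p = 0.070). Without any 1 of the control libraries or without MProPow2 replicate 1, edgeR gave an adjusted p between 0.192 and 0.334.

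In FPKM, pyk-2 made up 34.2%, 38.9% and 41.0% of the summed pyruvate kinase in control replicates 1, 2 and 3 and 32.8%, 36.9% and 24.2% in MProPow2 replicates 1, 2 and 3. The groups overlapped, and MProPow2 replicate 3 was the lowest. The summed reads of both genes were at 345 ± 19.4 CPM in control and 322 ± 14.0 CPM in MProPow2 (SD, n = 3 each), with a log2 fold change of -0.10 (95% confidence interval -0.30 to 0.11, adjusted p = 0.66 from edgeR). The groups overlapped in this sum. The summed FPKM was 109 ± 4.15 in control and 97.8 ± 0.99 in MProPow2 (SD, n = 3 each). There all MProPow2 libraries lay below all control libraries, and this total was not tested. Among the 4 GAPDH genes, the share of gpd-3 was 26.9% to 29.1% in control and 22.4% to 30.1% in MProPow2 libraries, so that no shift between the groups was seen beyond the spread of the libraries.

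**Figure D3:**
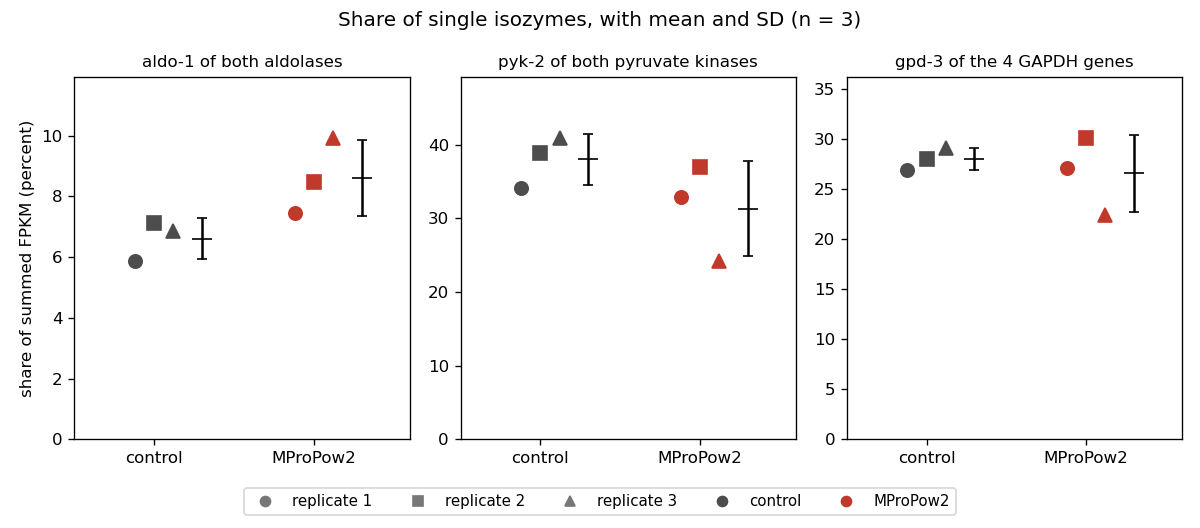
Share of 1 isozyme in the summed FPKM of its enzyme (y axis, percent, from 0) in each library, for aldo-1, pyk-2 and gpd-3, with mean and SD (n = 3) to the right of the points. The aldo-1 share is 5.86% to 7.11% in control (grey) and 7.45% to 9.93% in MProPow2 (red), and the pyk-2 and gpd-3 shares overlap between the groups.

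The levels of the 10 genes differed widely within the control group. Per length of the gene, aldo-2 was the most abundant with 482 ± 12.6 FPKM (SD, n = 3), followed by enol-1 with 260 ± 20.5, gpd-3 with 144 ± 2.55 and hxk-1 with 125 ± 15.9 FPKM. Then came pgk-1 (85.3 ± 1.71 FPKM), gpd-2 (83.4 ± 3.98 FPKM) and gpi-1 (81.7 ± 5.06 FPKM), whose control libraries overlapped. The lowest were pyk-1 (67.7 ± 6.0 FPKM), pyk-2 (41.4 ± 2.78 FPKM) and aldo-1 (34.1 ± 2.82 FPKM). All other neighbours in this order had no overlap of their control libraries. The most abundant gene, aldo-2, was also the gene called lower.

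Orders of the MProPow2 libraries within the single enzymes were noticed in the data and not tested. In aldo-2, gpd-2, gpd-3 and pyk-2, replicate 2 was the highest and replicate 3 the lowest of the MProPow2 libraries. This order held for 29.1% of all genes tested, for 6 of 8 intestinal and 3 of 5 hypodermal marker genes, for 5 of 6 genes of the HIF-1 pathway and for the glucose transporter gene fgt-1. It also held for 2 of 8 muscle, 3 of 9 neuronal and 0 of 10 germline marker genes. Replicate 3 was the lowest MProPow2 library in 4 of the 10 enzymes and in 40.9% of all genes tested, so the enzymes were at the background in this respect. Against the mean of the controls, these 4 genes were at -0.40 to -0.15 on the log2 scale in replicate 2, at -0.46 to -0.26 in replicate 1 and at -0.81 to -0.48 in replicate 3. Without replicate 3 their log2 fold changes were -0.43 for aldo-2, -0.30 for gpd-3, -0.29 for pyk-2 and -0.20 for gpd-2.

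In hxk-1, pgk-1, enol-1 and pyk-1, by contrast, replicate 3 was the highest and replicate 2 the lowest MProPow2 library. Replicate 2 was the lowest in 32.8% of all genes tested, and the share of all genes with this full order was not computed. Of these enzymes, hxk-1, enol-1 and pyk-1 also had control libraries in the order 1, 2, 3 from high to low. This joint order was shared by 9 of 10 germline and oocyte marker genes, by the other GAPDH genes gpd-1 and gpd-4, and by 9.49% of all genes tested. It also held for 3 of 8 genes that decide the fate of pyruvate, 1 of 8 muscle and 1 of 5 hypodermal marker genes. For 8 intestinal and 9 neuronal marker genes the count was 0. The summed CPM of the germline markers was 6200, 5521 and 4558 in control replicates 1, 2 and 3 and 5032, 4428 and 6511 in MProPow2 replicates 1, 2 and 3. These sums overlapped between the groups. In edgeR, 0 of the 10 markers passed an unadjusted p of 0.05. Of all genes tested, 7.75% were lower and 9.13% higher at that threshold. The remaining members, gpi-1 and aldo-1, followed neither order. The part of the germline in the levels of hxk-1, enol-1 and pyk-1 was not tested.

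**Figure D4:**
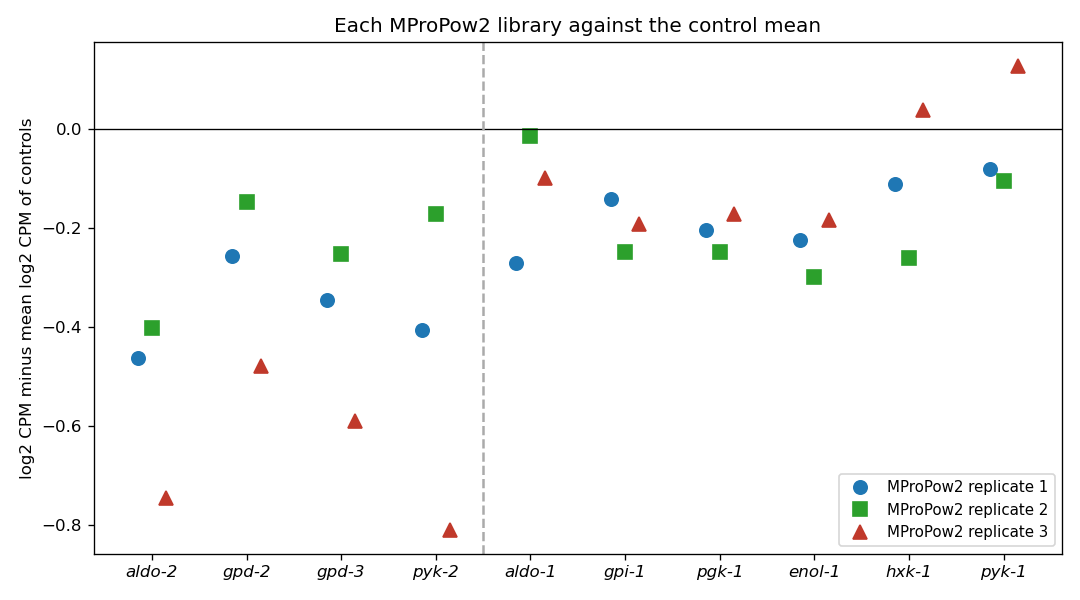
Log2 CPM of each MProPow2 library minus the mean log2 CPM of the control libraries (y axis) for the 10 enzymes. The genes were sorted by these values: those with replicate 3 (triangles) as the lowest library, at -0.81 to -0.48, were placed left of the dashed line. Replicate 3 is the lowest in 40.9% of all genes tested. The other enzymes are right of the line. For hxk-1 and pyk-1, replicate 3 lies above the control mean at 0.04 and 0.13.

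Whole animals mix all tissues, and with bulk RNA fewer cells of a type and less RNA per cell cannot be told apart. All 8 markers of body wall muscle had a negative log2 fold change, with a median of -0.38, against 52.9% of all genes tested with a negative value. Of these markers, 3 were called lower (mlc-3, unc-27 and lev-11), against 1.47% of all genes tested. The myosin gene myo-3, a defining marker, was at -0.07. The summed CPM of the 8 muscle markers was 1507 to 1637 in control and 1189 to 1292 in MProPow2 libraries. Of 8 intestinal markers, 7 had a negative value, and 4 were lower at an unadjusted p under 0.05, against 7.75% of all genes tested. Of the intestinal markers, 0 were called by edgeR and 1 (ifb-2, lower) by DESeq2, against 1.47% and 2.45% of all genes tested called lower. The median of the 8 intestinal markers was -0.26, with summed CPM of 1223 to 1258 in control and 950.5 to 1159 in MProPow2 libraries. The median was -0.07 for 9 neuronal markers, -0.25 for 5 tested hypodermal markers and -0.03 for 10 germline markers. In these lists edgeR called 0 genes, with 2, 1 and 0 lower at an unadjusted p (7.75% of all genes tested), and DESeq2 called 1 neuronal gene (unc-13, lower). The defining markers myo-3, ges-1, snb-1, col-19 and pgl-1 were expressed in every library. The part of muscle and intestine in the lower levels of the glycolysis genes was not tested.

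Of the 8 other genes of glycolysis tested, edgeR called 0 in either direction and DESeq2 called 1 (pfk-1.2, higher). Over all 14534 genes tested, edgeR called 1.47% lower and 1.53% higher, and DESeq2 called 2.45% lower and 386 genes higher. In edgeR, 7 of these 8 genes had a negative log2 fold change, and their median was -0.16. At an unadjusted p under 0.05, 3 were lower and 1 was higher, against 7.75% and 9.13% of all genes tested. The GAPDH gene gpd-1 was at 228, 204 and 196 CPM in control and 166, 142 and 193 CPM in MProPow2 libraries (log2 fold change -0.33, adjusted p = 0.20 from edgeR), and was called without MProPow2 replicate 3 (-0.44, adjusted p = 0.017). It was not called by DESeq2 (adjusted p = 0.20). Without any 1 of the control libraries or without MProPow2 replicate 1, edgeR gave an adjusted p between 0.30 and 0.54. Its close copy gpd-4 was at -0.20 (adjusted p = 0.39 from edgeR). For phosphoglycerate mutase (ipgm-1), which precedes enolase, the log2 fold change was -0.23, with no overlap between the groups (adjusted p = 0.19 from edgeR). Triosephosphate isomerase (tpi-1) was at -0.11 and hexokinase hxk-2 at -0.09, both with overlapping groups. The hexokinase hxk-3, named after its value was seen, was at -0.32 (adjusted p = 0.16 from edgeR).

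Phosphofructokinase, the committing step, stood out by its lesser gene. The main gene pfk-1.1 was at 55.6, 54.3 and 57.2 CPM in control and 51.3, 50.4 and 58.7 CPM in MProPow2 libraries, with a log2 fold change of -0.06 (95% confidence interval -0.26 to 0.14, adjusted p = 0.82 from edgeR). Its sign changed with upper-quartile scaling. The gene pfk-1.2, named after its values were seen, had only 15, 61 and 24 reads in control and 83, 121 and 60 reads in MProPow2 replicates 1, 2 and 3. In CPM this was 0.52, 1.63 and 0.76 in control and 2.58, 4.03 and 2.00 in MProPow2 libraries, so that all MProPow2 libraries were higher. Its log2 fold change was 1.53 with a standard error of 0.40 (adjusted p = 0.080, edgeR). It was called by DESeq2 (adjusted p = 0.0040), without MProPow2 replicate 3 (adjusted p = 0.0052 from edgeR), and with no filter (adjusted p = 9.5e-06 from edgeR). With a replicate block edgeR also called it (adjusted p = 0.046). It was not called by edgeR without any 1 of the control libraries or without MProPow2 replicate 1 (adjusted p between 0.052 and 0.236). Upper-quartile scaling (0.088) and RLE scaling (0.067) gave no call in edgeR either. It was the only gene of glycolysis examined here with a positive log2 fold change.

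In the lists around glycolysis, neither edgeR nor DESeq2 called a gene at its adjusted p. Over all genes tested, edgeR called 1.47% lower and DESeq2 2.45%. Of 8 genes that decide the fate of pyruvate (lactate dehydrogenase, the pyruvate dehydrogenase complex with its kinase and phosphatase, and pyruvate carboxylase), 8 had a negative log2 fold change, between -0.22 and -0.07, and 0 passed an unadjusted p of 0.05. Of 7 genes of the pentose phosphate pathway, which takes glucose-6-phosphate to NADPH and ribose, 7 were negative with a median of -0.14, 5 had all MProPow2 libraries below all control libraries (12.3% of all genes tested), and 2 were lower at an unadjusted p under 0.05 (7.75% of all genes tested). These were transaldolase (tald-1, log2 fold change -0.31, adjusted p = 0.14 from edgeR) and transketolase (tkt-1, -0.22, adjusted p = 0.23 from edgeR), both named after their values were seen. The 5 tested genes of glucose synthesis and fructose bisphosphate control had a median of -0.05, also with 0 at an unadjusted p under 0.05. Among them the abundant phosphoenolpyruvate carboxykinase gene pck-2, named after its values were seen, was at 669, 672 and 665 CPM in control and 636, 614 and 379 CPM in MProPow2 libraries. Its log2 fold change of -0.30 (adjusted p = 0.44 from edgeR) was -0.10 without MProPow2 replicate 3. Genes of the HIF-1 pathway, which raises glycolytic genes in low oxygen, had a median of -0.05 over 6 genes, with values between -0.32 and 0.15 and 0 at an unadjusted p under 0.05. These values are RNA levels of the pathway's own genes, and its activity was not tested. The glucose transporter gene fgt-1 was at -0.24 (adjusted p = 0.29 from edgeR), with overlapping groups. It was lower at an unadjusted p under 0.05 in edgeR (7.75% of all genes tested).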

How the data were processed

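Poly-A RNA of whole animals was sequenced in 6 libraries, 3 per group. Paired-end reads were aligned by the authors with HISAT2. They used FeatureCounts to count reads for each gene and deposited the raw counts. The FPKM table that was also deposited (fragments by gene length and library size) holds the counts rescaled by 1 constant for each gene and 1 for each library, as tested on 9275 genes, and was used for levels between genes, for isozyme shares and for limma. The sources used here do not give the genome build, the annotation version or the strand setting. No coordinates are printed for that reason, and overlapping genes may hold each other's reads. In the RefSeq gene table, 46920 of 46936 identifiers were found. Of the 10 enzymes, aldo-2 overlaps the coding gene F01F1.3, which held 223 reads per library on average, and pyk-1 and pyk-2 overlap noncoding genes that held under 2.

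The main test was run in edgeR 4.0.16 under R 4.3.3 (filterByExpr with a minimum count of 10, TMM scaling, quasi-likelihood F test, no covariates, Benjamini-Hochberg adjustment over 14534 genes, threshold 0.05). Standard errors are the log2 fold change divided by the square root of F. The common biological coefficient of variation was 13.9%. The enzymes had 1131 to 24223 reads per library. Replicates differed by more than sampling noise in every pair (lowest chi-square divided by its degrees of freedom 14.7). For the sums, the rows of both paralogs were replaced by their sum before the fit. The enzymes and all lists were chosen with earlier results of these data known, and no set test was run. The text names all 10 enzymes, hxk-2, pfk-1.1, tpi-1, ipgm-1, gpd-1 and gpd-4, and any list gene called, and says so where a gene was named after its values were seen. The alternatives were RLE and upper-quartile scaling, DESeq2 1.42.0 with its Wald test, a minimum of 10 counts in each library or no filter at all, a replicate block, leaving out each library, and limma 3.58.1 on log2(FPKM + 1) or log2(FPKM + 0.1), keeping genes from a mean FPKM of 0.1 upward or all genes. The scripts were tested on simulated data. Columns were assigned by the sample descriptions, with 0 left over.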

Additional observations from a re-analysis of the deposited data

How the results depend on the processing

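The median log2 fold change of the 10 enzymes stayed between -0.24 and -0.16 under all alternatives. With upper-quartile scaling, 0 enzymes were called lower, 3 were lower at an unadjusted p (4.61% of all genes), and 131 genes were called lower in all. The aldolase sum was then at -0.43 (adjusted p = 0.082 from edgeR), pyk-1 at 0.046 and pfk-1.1 at 0.0057. The median of all genes tested was 0.053 with that scaling. With no filter, 3 enzymes (aldo-2, gpd-3 and pyk-2) and 1 other gene of glycolysis (pfk-1.2, higher) were called, the sum of gpd-2 and gpd-3 was at -0.36 (adjusted p = 0.041), and 542 genes were lower and 684 higher. With at least 10 counts in every library the aldolase sum was at -0.49 (adjusted p = 0.051). DESeq2 called 2 enzymes and 1 other gene of glycolysis, with the sum of gpd-2 and gpd-3 at -0.34. Over all genes tested it called 356 (2.45%) lower and 386 higher. With limma, 0 enzymes were called, and 60 genes were lower and 37 higher for log2(FPKM + 1), 82 and 66 for log2(FPKM + 0.1), and 33 and 12 with no filter.

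Same-numbered libraries had correlations of -0.05, 0.10 and -0.12 of their deviations from the group means. With 3 libraries per group, these values cannot decide whether same-numbered libraries were raised together. The sources used here do not state it. With a replicate block, 0 enzymes were called (aldo-2 at -0.54, adjusted p = 0.080; the aldolase sum at -0.51, adjusted p = 0.090), 1 other gene of glycolysis was higher (pfk-1.2, adjusted p = 0.046), and 102 genes were lower and 90 higher.

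With single libraries left out, 0 to 2 enzymes were called lower and 4 to 6 were lower at an unadjusted p, with 55 to 417 genes lower and 17 to 627 higher. Without control replicate 1, 4 enzymes and 5.11% of all genes were lower at an unadjusted p. Without MProPow2 replicate 2, these were 5 enzymes and 9.07%. The aldolase sum ran from -0.57 to -0.41, and its call was lost in 4 of the 6 fits (adjusted p between 0.126 and 0.146) and kept without MProPow2 replicate 2 or 3 (0.038 and 0.014). Other genes of glycolysis called lower and higher numbered 0 to 1 each, and genes of pyruvate fate called lower 0 to 1 (pdp-1 without MProPow2 replicate 3, -0.32, adjusted p = 0.0497). The log2 fold change of pyk-1 ran from -0.099 without MProPow2 replicate 3 to 0.039 without control replicate 1, and was 0.0089 and 0.022 without MProPow2 replicate 1 or 2. The causes of these changes were not tested.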
